A study of Mus musculus with 4 samples.

Results

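The genes described here are lipocalin 2 (Lcn2), its cell-surface receptor Slc22a17 and 8 genes that bring iron into cells, store it, release it and sense it: Tfrc, Slc11a2, Fth1, Ftl1, Ncoa4, Slc40a1, Aco1 and Ireb2. They were found by gene symbol in the platform's probe annotation, and all 10 were read by 1 probe set each, out of 19505 genes on the array. The set was chosen by the difference between deltamethrin and vehicle arrays in these same data, in which Lcn2 had the largest rise of all probe sets, so the group differences of these genes are given as a description and not as a test. The cells were Neuro-2a, a line derived from a neuroblastoma of a mouse that the labels call Albino strain A, grown in serum-containing medium with penicillin and streptomycin. One group received 30 µM deltamethrin, a pyrethroid insecticide, for 24 h, and the other received the vehicle, 0.1% DMSO, for the same time. The labels do not state the DMSO content of the deltamethrin medium, so whether the groups differ in DMSO as well is not known here. Total RNA of each group was measured on 2 Affymetrix Clariom S Mouse arrays. The labels do not say that the 2 arrays of a group came from separate cultures, so the spread between them may be technical. The line is a tumour line, and nothing in these data speaks to normal neurons or glia.

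Lipocalin 2 is a small secreted protein that binds iron through siderophores. It is best known from neutrophil granules and from injured epithelium, where it withholds iron from bacteria, and SLC22A17 and megalin (Lrp2) take it up. Cells otherwise import iron bound to transferrin through the transferrin receptor, move it out of endosomes through SLC11A2 (DMT1), store the surplus in ferritin shells of heavy and light chains, recover it by NCOA4-directed autophagy of ferritin and export it through ferroportin (SLC40A1). The iron regulatory proteins IRP1 (Aco1) and IRP2 (Ireb2) bind iron-responsive elements of mRNAs when iron is scarce, which blocks translation of ferritin and stabilises the transferrin receptor mRNA. Much of this control thus acts on translation or on protein and is not seen in the level of a transcript.

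Promoter windows of 8 of the 10 genes were found in RefSeq's promoter table (build GRCm38.p6), each running from 250 bases before a transcript's start to 50 after it. The bases before the start are shown for Lcn2 and Ftl1, the members with the largest differences upward, at chr2:32387740-32387989 and chr7:45459887-45460136, both on the minus strand. Capitals mark every match to the motifs searched.
Lcn2: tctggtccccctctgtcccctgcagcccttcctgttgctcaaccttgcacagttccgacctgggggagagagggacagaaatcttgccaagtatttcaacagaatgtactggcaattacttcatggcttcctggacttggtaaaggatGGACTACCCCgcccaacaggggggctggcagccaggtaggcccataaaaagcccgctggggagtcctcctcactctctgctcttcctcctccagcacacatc
Ftl1: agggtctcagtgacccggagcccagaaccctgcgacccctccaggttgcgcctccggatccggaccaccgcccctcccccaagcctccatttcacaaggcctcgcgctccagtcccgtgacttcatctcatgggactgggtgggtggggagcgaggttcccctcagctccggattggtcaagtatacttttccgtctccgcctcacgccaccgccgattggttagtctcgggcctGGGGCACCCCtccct

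The motif in capitals is a loose form of the NF-kB site, GGG and CC with any 5 bases between them, searched on both strands. Counted from the transcript's start, it began at position -102 in the Lcn2 window and at -15 in the Ftl1 window, where it matched on both strands. All 8 members with a window held such a match in at least 1 of their windows, as did 53.5% of the 27025 genes in the table, and nothing is read from it. The C/EBP motif TTGCNNNAA was found for 1 member, Fth1 (10.7% of all genes hold it), and the antioxidant response element TGACNNNGC for 1, Ncoa4 (14.0% of all genes). The hypoxia response element ACGTG was found for Ncoa4, Slc22a17 and Tfrc (21.8% of all genes). No member's window held the AP-1 motif TGANTCA (8.97% of all genes) or the C/EBP-ATF motif TGATGNAA (4.51%). The iron-responsive element was searched as a C, any 5 bases and CAGTG with 1 more base, in the sense direction of the 50 bases after the start, and none of the 8 members had a match there, against 1.82% of all genes. The known elements can lie outside this stretch, further into the leader or, for Tfrc and Slc11a2, behind the coding region, and those parts were not searched. A motif match is a description of these letters, and some motifs can overlap, as the antioxidant and AP-1 motifs do.

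Levels are log2 signals after RMA, the authors' normalization, and a difference of 1 is a doubling. Lcn2 read 4.13 and 3.28 on the vehicle arrays and 8.65 and 8.66 on the deltamethrin arrays. The groups were far apart, and the nearest values differed by 4.52. The vehicle mean was 3.71 ± 0.60 and the deltamethrin mean 8.66 ± 0.01 (SD, n = 2). The difference on the log2 scale was 4.95 ± 0.29 (SE), or 30.9-fold. Within the arrays this took Lcn2 from the 29.8th and 12.6th percentiles of all probe sets to the 66.3rd and 66.1st. On the vehicle arrays Lcn2 lay below the median of all values, 5.62, and the table has no detection call, so the vehicle level may be background and the fold rests on it. The vehicle arrays differed by 0.85 for Lcn2, a gap reached by 1.99% of probe sets, while the deltamethrin arrays differed by 0.01. With any 1 array left out the estimate stayed between 4.53 and 5.38, set by which of the vehicle arrays was kept.

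**Figure D1:**
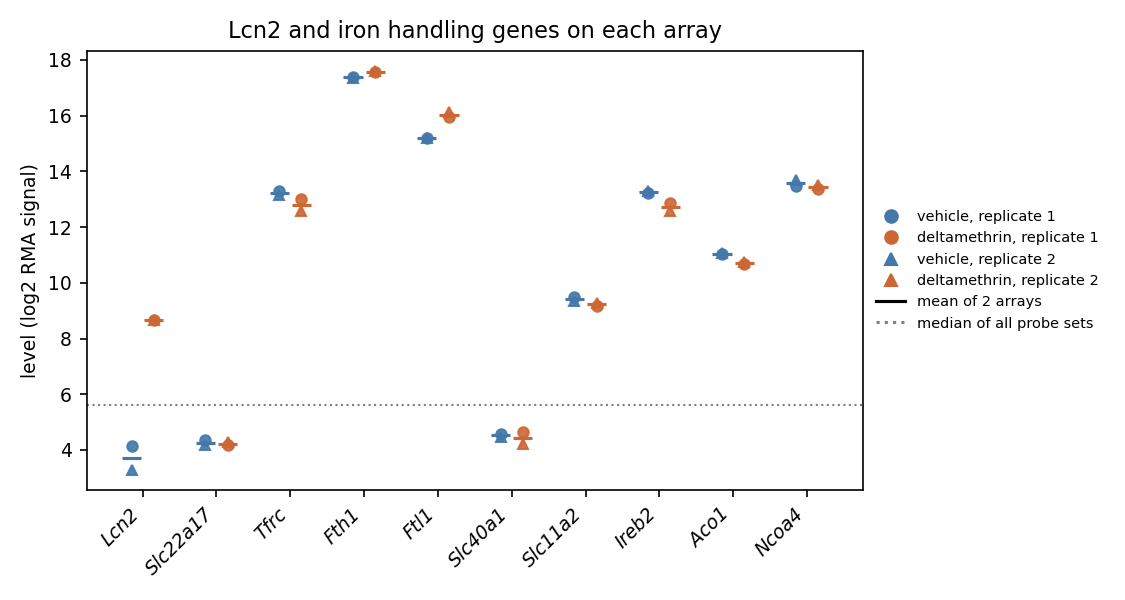
Level of each of the 10 genes (log2 RMA signal) on each array, with vehicle arrays in blue and deltamethrin arrays in orange, circles for replicate 1, triangles for replicate 2, short lines for the means of 2 arrays and a dotted line for the median of all values (5.62). Lcn2 moves from below the dotted line on the vehicle arrays to 8.65 and 8.66 with deltamethrin, while Slc22a17 and Slc40a1 lie below it on every array.

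Of the receptors of lipocalin 2, Slc22a17 and Lrp2 were looked up, and neither read higher with deltamethrin. Slc22a17, the lipocalin 2 receptor, read 4.35 and 4.18 with vehicle and 4.17 and 4.28 with deltamethrin. The groups overlapped, and the difference of -0.04 ± 0.17 (SE, n = 2) was smaller than the gap between the vehicle arrays, 0.17. Lrp2, which encodes megalin, the other uptake receptor, came from the wider list of iron uptake genes. It read 4.98 and 4.75 with vehicle and 3.92 and 4.15 with deltamethrin, a difference of -0.83 ± 0.18 that did not pass in limma (adjusted p = 0.150). Both receptors were dim, below the median of all values on every array, so their differences are hard to tell from background.

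Iron uptake through transferrin was represented by Tfrc and Slc11a2. Both read lower with deltamethrin by small amounts, and neither passed the threshold in limma. Tfrc, the transferrin receptor, read 13.30 and 13.15 with vehicle and 13.02 and 12.59 with deltamethrin. The groups did not overlap but came within 0.13 of each other, less than the gap of 0.43 between the deltamethrin arrays. The difference was -0.42 ± 0.21, which leaves 74.7% of the vehicle signal, and it ran from -0.64 to -0.21 as each array was left out. Slc11a2, the endosomal iron transporter, read 9.50 and 9.35 with vehicle and 9.18 and 9.27 with deltamethrin, a difference of -0.20 ± 0.17. Its groups came within 0.08 of each other.

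Both ferritin genes read higher with deltamethrin, and neither passed the threshold in limma. Ftl1, the ferritin light chain, read 15.20 and 15.19 with vehicle and 15.94 and 16.13 with deltamethrin. All deltamethrin values lay above all vehicle values by at least 0.74, against a gap of at most 0.19 within a group. The difference was 0.84 ± 0.17, or 1.79-fold. It was the largest among the genes after Lcn2 and ranked 428 of 22206 probe sets from the top.

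Fth1, the ferritin heavy chain that oxidises iron as it enters the shell, read 17.39 and 17.35 with vehicle and 17.55 and 17.61 with deltamethrin. The groups were apart by 0.16, and the difference was 0.21 ± 0.16, or 1.16-fold. Its vehicle mean of 17.37 lay at the 99.8th percentile of each vehicle array, and the highest value in the table was 18.75, so how far the signal of Fth1 could rise was not tested. Both ferritin genes have processed pseudogenes of nearly the same sequence, and whether those share in the signal was not tested. Ncoa4, the receptor that delivers ferritin to autophagy, read 13.49 and 13.69 with vehicle and 13.35 and 13.51 with deltamethrin. Its groups overlapped, with a difference of -0.16 ± 0.18.

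Slc40a1, which encodes ferroportin, the iron exporter, read 4.59 and 4.48 with vehicle and 4.63 and 4.23 with deltamethrin. The groups overlapped, and the difference of -0.11 ± 0.20 was smaller than the gap of 0.40 between the deltamethrin arrays. Like Slc22a17 it lay below the median of all values on every array, so a change in it is hard to tell from background.

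Both genes for iron regulatory proteins read lower with deltamethrin, and neither passed the threshold in limma. Ireb2, the IRP2 gene, read 13.21 and 13.30 with vehicle and 12.87 and 12.56 with deltamethrin. The groups were apart by 0.34, close to the gap of 0.31 between the deltamethrin arrays. The difference was -0.54 ± 0.18, the largest downward among the 10 genes, and it leaves 68.8% of the vehicle signal. Aco1, which encodes the cytosolic aconitase that becomes IRP1 when it loses its iron-sulfur cluster, read 11.02 and 11.08 with vehicle and 10.68 and 10.74 with deltamethrin. Its arrays were tight, with gaps of 0.06 in each group, and the groups were apart by 0.28. The difference was -0.34 ± 0.16.

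**Figure D2:**
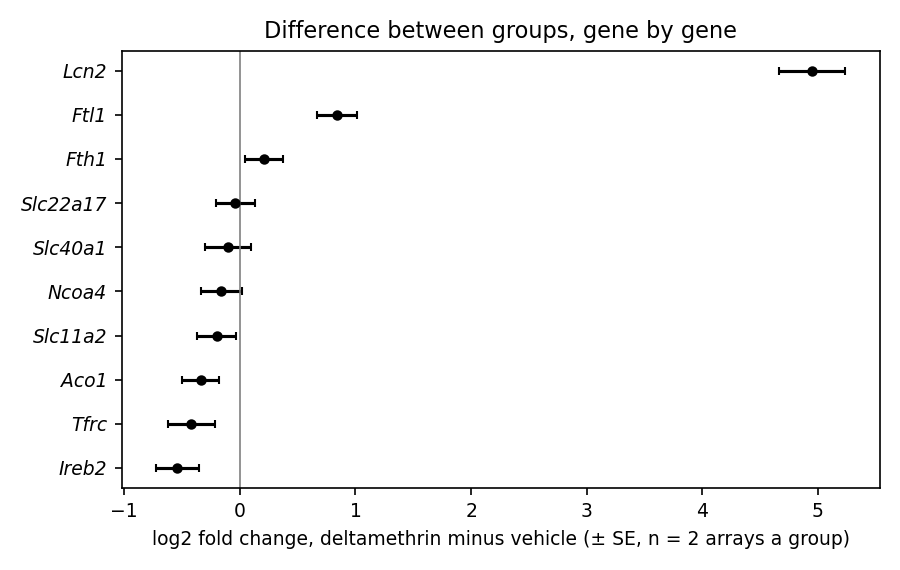
Log2 fold change of each of the 10 genes, deltamethrin minus vehicle, as points with bars of 1 SE (n = 2 arrays a group). Lcn2 stands at 4.95, Ftl1 at 0.84 and Fth1 at 0.21, and the other 7 lie between -0.54 and -0.04.

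Side by side, 3 of the 10 genes read higher and 7 lower, with a median of -0.13, while the median over all probe sets was -0.02. The groups did not overlap for 7 of them, 3 above (Lcn2, Ftl1 and Fth1) and 4 below (Tfrc, Slc11a2, Ireb2 and Aco1). Over all probe sets the groups did not overlap for 43.9%, with 20.3% above and 23.5% below. In limma, fitted over all probe sets with an adjusted p below 0.05 as the threshold, 1 of the 10 passed, Lcn2, beside 0.432% of all probe sets (0.356% higher and 0.0766% lower). Since this contrast chose Lcn2, nothing is read from that count. With any 1 of the 4 arrays left out, 1 group holds 1 array, and the threshold then says little about any gene. A fit with the variance tied to the level let Ftl1 pass as well, 2 of 10 beside 3.63% of all probe sets. Quantile, cyclic loess and median scaling kept the direction of each gene except Slc22a17 under quantile scaling. In RNA of whole cultures like these, fewer cells that hold a transcript and less of it per cell cannot be told apart, and the same holds for treatment and any batch, since no scan date was used here.

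The genes closest to Lcn2 in profile were sought by the Euclidean distance of their values over the 4 arrays, each less its own vehicle mean. Car6, a secreted carbonic anhydrase, was the nearest at a distance of 1.15, with a log2 fold change of 4.32. The next were Ppp1r15a, the GADD34 subunit of the eIF2α phosphatase (distance 2.91), Tnfaip2, a TNF-induced gene (3.02), Cox6a2, a muscle and heart subunit of cytochrome c oxidase (3.02), and 1810010H24Rik (3.09). Their log2 fold changes ran from 2.78 to 3.03. With 2 groups of 2 arrays this likeness is little more than the size of the difference. On the vehicle arrays Lcn2 itself varied more than any of the 5.

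**Figure D3:**
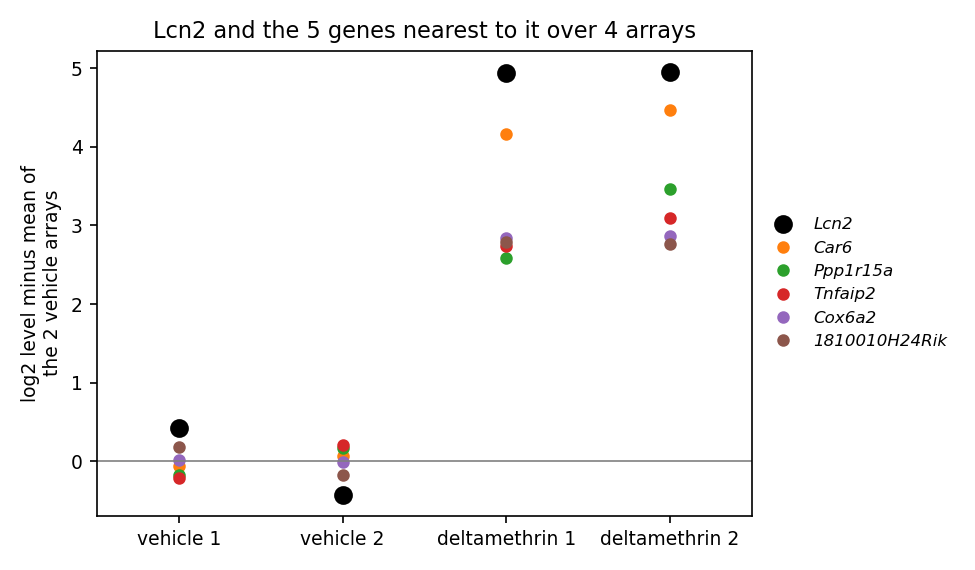
Log2 level less the mean of the 2 vehicle arrays for Lcn2 (large black points) and the 5 genes nearest to it by Euclidean distance, on each of the 4 arrays. Lcn2 is the highest on both deltamethrin arrays and also has the widest split between the vehicle arrays, from 4.13 to 3.28 in level.

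Genes that are often induced together with Lcn2 in inflammation, the targets and factors of NF-kB and C/EBP, were taken as a list. In limma 0 of its 32 genes with a probe set passed, and 7 had an unadjusted p below 0.05, a level reached by 13.7% of all probe sets (3035 of 22206). The list's median was 0.11, with 22 genes higher and 10 lower. Cebpd, the acute-phase factor C/EBP delta, read 5.52 and 5.34 with vehicle and 6.01 and 6.14 with deltamethrin, a difference of 0.65 ± 0.17 (adjusted p = 0.202). Cfb, complement factor B, went the other way at -1.0 ± 0.21 (adjusted p = 0.143) and was dim. Nfkbiz, the IkB-zeta cofactor that Lcn2 induction by inflammatory signals needs, was at 0.69 ± 0.23 and is named after its value was seen. The acute-phase genes Saa3, at 0.70 ± 0.33, Serpina3n, at 0.11, and Hp, also at 0.11, were looked up in the same way. The related Saa1 went the other way at -0.555 ± 0.220, and Saa2 was at 0.01. Ccl20, at -0.385, and Timp1, at -0.335, were also among the 10 lower genes. Serpina3n, Hp, Saa1, Saa2 and Timp1 were dim. The vehicle means of Saa3 (5.425), Cebpd (5.43) and Nfkb2 (5.415) also lay below the median of all values, 5.62. Saa3 read 5.93 and 4.92 with vehicle and 6.26 and 5.99 with deltamethrin, so its groups nearly met. Nfkb2, at 0.605 ± 0.176, and Il6, at 0.545 ± 0.171, are also named after their values were seen.

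The other lipocalins and their intracellular relatives held no call. In limma 0 of the 24 with a probe set passed, 3 had an unadjusted p below 0.05 (13.7% of all probe sets did), and the median was -0.15 with 5 higher and 19 lower. Only 4 of the 24 had a group mean above the median of all values. Of the highest, Rbp4, the retinol carrier, read 11.86 and 11.70 with vehicle and 13.15 and 12.89 with deltamethrin, a difference of 1.24 ± 0.18 (adjusted p = 0.0667). Fabp3, a cytosolic fatty acid carrier, read 5.63 and 5.39 with vehicle and 7.06 and 6.63 with deltamethrin, a difference of 1.34 ± 0.21 (adjusted p = 0.0814). Both passed when probe sets at or below the 40th percentile of the mean level were left out, and with the variance tied to the level.

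Lcn2 is abundant in neutrophils, so their markers were read beside it. Of 11 measured neutrophil markers, 0 had a group mean above the median of all values. Their summed signal was 7.13 and 7.10 (log2) on the vehicle arrays and 7.31 and 7.13 on the deltamethrin arrays. S100a9 had the largest difference, 0.68 ± 0.19, at levels of 3.93 to 4.84. The granule genes Ltf and Camp, which accompany Lcn2 in neutrophils, were at -0.11 and -0.22. Ngp was at 0.15, Mpo at 0.27 and Retnlg at 0.40. Of the 11 neutrophil markers 4 read higher with deltamethrin and 7 lower, all at dim levels. None of 7 astrocyte or 6 fibroblast markers and 1 of 9 macrophage markers (Ptprc) had a group mean above the median of all values. Of 6 hepatocyte markers 2 did, Alb, with a vehicle mean of 5.68, and Serpina1a, with means of 6.07 and 6.28. For the labelled cell type, all 13 measured sympathoadrenal and neuronal markers lay above it. Of these 11 read lower with deltamethrin and 2 higher, with a median of -0.27 and no gene past the threshold in limma. An unadjusted limma p below 0.05 was reached by 7 of the 13 markers, a larger share than the 13.7% of all probe sets. Over all probe sets 11744 read lower and 10309 higher.

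Among other genes of iron biology, 95 were listed in 5 groups and 85 were measured. In limma 2 rose, Hmox1 and Nfu1, 0 fell and 83 did not pass, a share of 2.35% beside 0.432% of all probe sets. The median of the 85 was 0.04 (all probe sets, -0.02). The deltamethrin arrays lay above the vehicle arrays for 34.1% of the 85 and below for 20.0%. Over all probe sets these shares were 20.3% and 23.5%. The lists were written with results of these data known, Hmox1 among them, so these counts are a description.

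Haem genes held the first of these. In limma 1 of the 22 with a probe set rose and 0 fell, beside 0.356% and 0.0766% of all probe sets. The other 21 missed the threshold, and the median was 0.13. Hmox1, the inducible haem oxygenase that frees iron from haem, read 12.65 and 12.98 with vehicle and 14.70 and 14.69 with deltamethrin, a rise of 1.88 ± 0.19 (limma adjusted p = 0.0245) or 3.68-fold. The next largest, named after their values were seen, sit beside it in haem turnover. Blvrb, a biliverdin reductase, was at 1.05 ± 0.18 (adjusted p = 0.0984), and Slc48a1, which carries haem out of lysosomes, was at 0.98 ± 0.17 (adjusted p = 0.0955). Both passed when dim probe sets were left out and with the variance tied to the level. The constitutive oxygenase Hmox2 was at -0.07. Of the haem synthesis enzymes Alas1, the first and limiting one, was at 0.44 ± 0.19. Fech, which inserts the iron, was at 0.30 ± 0.19. The others measured were Cpox at 0.345, Alad at 0.10, Urod at 0.055, Uros at -0.04 and Ppox at -0.155. Of the 22 haem genes 15 read higher and 7 lower, with Abcb10 the lowest at -0.625. With any 1 array left out, the estimate for Hmox1 ran from 1.72 to 2.05.

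Genes of iron-sulfur cluster assembly and mitochondrial iron import held the other. In limma 1 of the 23 with a probe set rose and 0 fell, beside 0.356% and 0.0766% of all probe sets. The other 22 missed the threshold, and the median was 0.20. Nfu1, a mitochondrial carrier that hands clusters to enzymes such as lipoic acid synthase, read 10.66 and 11.06 with vehicle and 12.48 and 12.84 with deltamethrin. The groups were well apart, and the rise was 1.80 ± 0.22 (limma adjusted p = 0.0410) or 3.48-fold. Its estimate ran from 1.60 to 2.00 as each array was left out. With the variance tied to the level, Hscb, the co-chaperone that moves the new cluster off its scaffold (0.96 ± 0.18), and Ciao2b, of the cytosolic targeting complex (0.58 ± 0.17), passed as well; they are named after their values were seen. The scaffold Iscu (-0.19) and the cysteine desulfurase Nfs1 (-0.21) read slightly lower, and the mitochondrial iron importer Slc25a37 was at 0.71 ± 0.24 (adjusted p = 0.280).

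In the remaining 3 lists no gene passed. Of 15 genes of iron uptake and the transferrin cycle 0 passed in limma and 6 had an unadjusted p below 0.05 (13.7% of all probe sets did), with a median of 0.14. Tfr2, the second transferrin receptor, read 6.59 and 6.41 with vehicle and 7.31 and 7.24 with deltamethrin, a difference of 0.78 ± 0.17 (adjusted p = 0.147), opposite in direction to Tfrc. Of 16 genes of storage, iron chaperoning and export 0 passed and 0 had an unadjusted p below 0.05, with a median of -0.03. The export ferroxidase ceruloplasmin, Cp, was at 0.29 ± 0.18 and Bmp6, which drives hepcidin, at -0.35 ± 0.21. Fbxl5, which marks IRP2 for degradation when iron is ample, was at 0.04 ± 0.18, and the hepcidin genes Hamp and Hamp2 were at -0.09 and -0.24. Of 9 other genes whose mRNAs are reported to carry an iron-responsive element 0 passed and 0 had an unadjusted p below 0.05, with a median of -0.14. Among them App was at 0.22 ± 0.16 and Cdc42bpa at -0.26 ± 0.21.

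**Figure D4:**
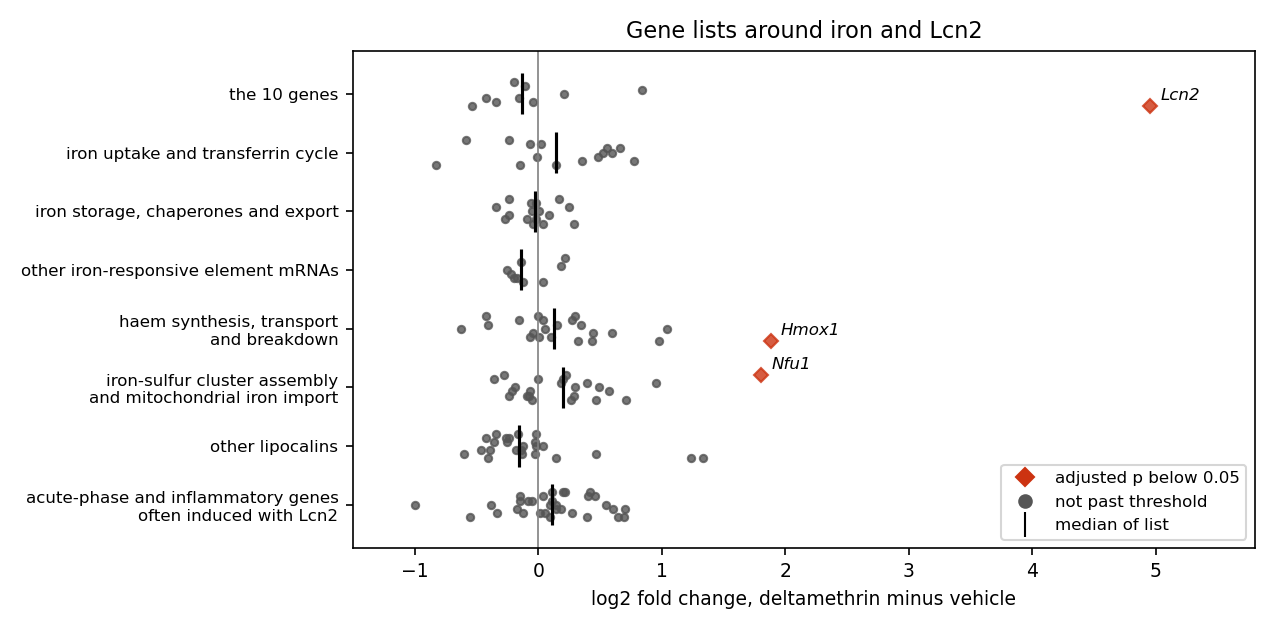
Log2 fold change, deltamethrin minus vehicle, of every measured gene (brightest probe set) in the 10 genes and in 7 lists around iron and Lcn2, with red diamonds for genes with an adjusted p below 0.05 in limma, grey circles for the rest and a vertical bar for each list's median. Lcn2 at 4.95, Hmox1 at 1.88 and Nfu1 at 1.80 are the diamonds, and the list medians lie between -0.15 and 0.20.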

How the data were processed

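The authors deposited log2 values, 1 per probe set and array, for which the submitters' processing notes name Transcriptome Analysis Console and RMA (versions: not given in the sources used here). That the values, 1.92 to 18.75, are on a log2 scale was judged from their range. RMA aligns the arrays, whose medians lay between 5.61 and 5.63, so a shift shared by all transcripts would not be seen. Per the labels' protocols, 500 ng of RNA with an integrity number above 9 was labelled. All 22206 probe sets were fitted with limma 3.58.1 in R 4.3.3 (lmFit, eBayes, no trend, no block), two-sided, with Benjamini-Hochberg adjustment over all of them. Precision is limited by the number of arrays, with a median SE of 0.19, and an exact permutation test of 2 against 2 arrays cannot go below p = 0.333. On simulated data of 22206 probe sets the fit found 88% of 100 true changes of 2 on the log2 scale and 5% of 100 true changes of 1, and made 8 false calls. The brightest probe set stood for a gene. Of the probe sets, 19572 had 1 symbol, 0 had several and 2634 were unnamed here. The 10 of 95 iron list entries, 5 of 29 lipocalins and 3 of 35 inflammatory genes without a matched symbol were not analysed here. Named genes were all 10 members, the 5 nearest to Lcn2 and, from each list, up to 4 called genes with the largest differences, or the 2 with the smallest p where no gene was called; other list genes given as examples were chosen after their values were seen. Members and lists were chosen with earlier results of these data known. Alternatives were a replicate block, a filter on dim probe sets, 3 scalings, 3 variance models, a stricter threshold, 1 probe set per gene and leaving out each array.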

Additional observations from a re-analysis of the deposited data

How the results depend on the processing

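Under the 14 alternatives the differences of Lcn2, Tfrc, Fth1, Ftl1, Slc11a2, Ireb2, Aco1 and Ncoa4 kept their sign. Slc22a17 changed sign under quantile scaling (0.0038), without vehicle replicate 1 (0.045) and without deltamethrin replicate 1 (0.015), and ran from -0.13 to 0.045 as each array was left out. Slc40a1 changed sign without deltamethrin replicate 2 (0.095), in a range from -0.31 to 0.095. The count of probe sets past the threshold in limma, 96, was 312 without dim probe sets (the filter drops Slc22a17 and Slc40a1), 806 with a mean-variance trend, 5 at an adjusted p below 0.01, and 0 without moderation and with any 1 array left out. Among the 10 genes the count, 1, was 2 with the trend and 0 without moderation or 1 array. The haem list, 1, gave 3 without dim probe sets and 3 with the trend; the iron-sulfur list, 1, gave 2 and 3; the other lipocalins, 0, gave 2 and 2. The haem and iron-sulfur lists gave 0 at an adjusted p below 0.01, without moderation and without 1 array. With the replicate number as a block, 0 probe sets passed overall and 0 in every list (3221 had an unadjusted p below 0.05). The labels do not say that equal numbers share a culture or day, so the numbers were not taken to pair the arrays. Same-numbered arrays deviated together weakly (correlation 0.13 over probe sets), which does not settle whether they are paired. The other counts stayed within 1.5 times. With 2 arrays a group, a change of 2-fold is mostly below what this fit can call, so the genes that did not pass cannot be called level.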
